A study of Mus musculus with 23 samples.

Results

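Leukaemic granulocyte-macrophage progenitors (L-GMPs) that arose without C/EBPα were compared with normal granulocyte-macrophage progenitors (GMPs) of control mice. The comparison takes the 3 arrays that the labels give as L-GMPs of knockout MLL-AF9 mice and the 3 arrays given as GMPs of control mouse bone marrow, 6 of the 23 mouse arrays of the study. Of the 3 knockout L-GMP arrays 1 is from a primary recipient and 2 are from secondary recipients of the same leukaemia, so they stand for 1 leukaemia. The donors were Mx.1-Cre+ C/EBPa f/f mice treated with poly I:C 3 times, and their cells were kept in stem cell factor and thrombopoietin (100 ng/ml each) with IL-3 (10 ng/ml), infected with an MSCV retrovirus for MLL-AF9 with GFP as its marker, and given to lethally irradiated mice. A Cre under the Mx1 promoter responds to the interferon that poly I:C induces and is not restricted to blood cells. The title of the primary array gives stem and progenitor cells (KSLs) as the cells infected. Vectors expressing IL-3 and GM-CSF were injected into knockout recipients 2 to 4 months after transplantation, and the leukaemia is labelled with both cytokines. The control GMPs came from mice given as wild type for C/EBPa, 5 days after the same 3 poly I:C injections, and their label names no virus and no transplantation. For the protocol's controls the genotype is Mx.1-Cre- C/EBPa f/f, so they lacked the Cre. L-GMPs from control MLL-AF9 mice (4 arrays, 2 primary and 2 secondary), which kept C/EBPα, were used to see which changes differ between the leukaemias. The cytokine vectors are recorded for the knockout recipients only, so knockout and vectors cannot be told apart between the leukaemias. Knockout, fusion gene, cytokine vectors, culture, transplantation and the time since poly I:C all separate the L-GMPs from the GMPs. Any difference in array batch would do so too, and these cannot be told apart here. Age, strain and sex are not given in the labels used here.

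C/EBPα is a transcription factor that takes myeloid progenitors into the granulocyte and monocyte lineages, and the GMP is the first stage committed to them. MLL-AF9 joins the chromatin regulator MLL to AF9 and keeps genes such as Hoxa9 and Meis1 active, which are normally shut down as stem cells mature. GMPs store the serine proteases of the neutrophil's primary granules, and granules of later stages follow under other members of the C/EBP family.

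Values are log2 expression levels made with RMA, in which one unit is a doubling, and they compare arrays within a gene and not one gene with another. Differences are knockout L-GMPs minus control GMPs, as log2 change ± SE from limma, and a gene counts as changed at an adjusted p (Benjamini-Hochberg over 19937 genes) under 0.05. Array values are given in the order primary, secondary 1, secondary 2 for knockout L-GMPs and 1, 2, 3 for GMPs. Since the arrays of 1 leukaemia are not independent leukaemias, the test was run again with them averaged to 1 sample, and a result is said to hold "counted once" where it also passed there. The spread behind each p-value is pooled over the arrays of all 9 groups of the study, so the SE of a gene can exceed the spread of the 6 arrays compared, and a leukaemia counted once adds no spread of its own. The pooled spread is that between arrays, which may be technical. Across genes the arrays of the leukaemia correlated with each other at 0.983 to 0.990, the GMP arrays with each other at 0.991 to 0.994, and the 2 kinds with each other at 0.956 to 0.969. Xist, transcribed from the inactive X of females, was high on all 6 arrays (10.07 to 10.92).

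Of the 19937 genes 2479 changed (12.4%), 956 higher (4.8%) and 1523 lower (7.64%) in knockout L-GMPs, and 294 (1.47%) were higher and 440 (2.21%) lower by at least 2-fold. Counted once, 541 passed (2.71%), 207 higher (1.04%) and 334 lower (1.68%). The 3 knockout L-GMP values lay wholly outside the 3 GMP values for 7417 genes (37.2%), so that separation of the arrays is common among all genes. The median change of all genes was −0.0046. The split between higher and lower depended on scaling by under 10 percentage points, with 38.6% of changed genes higher as deposited, 31.8% after a further quantile normalization and 33.8% after centring each array.

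**Figure D1:**
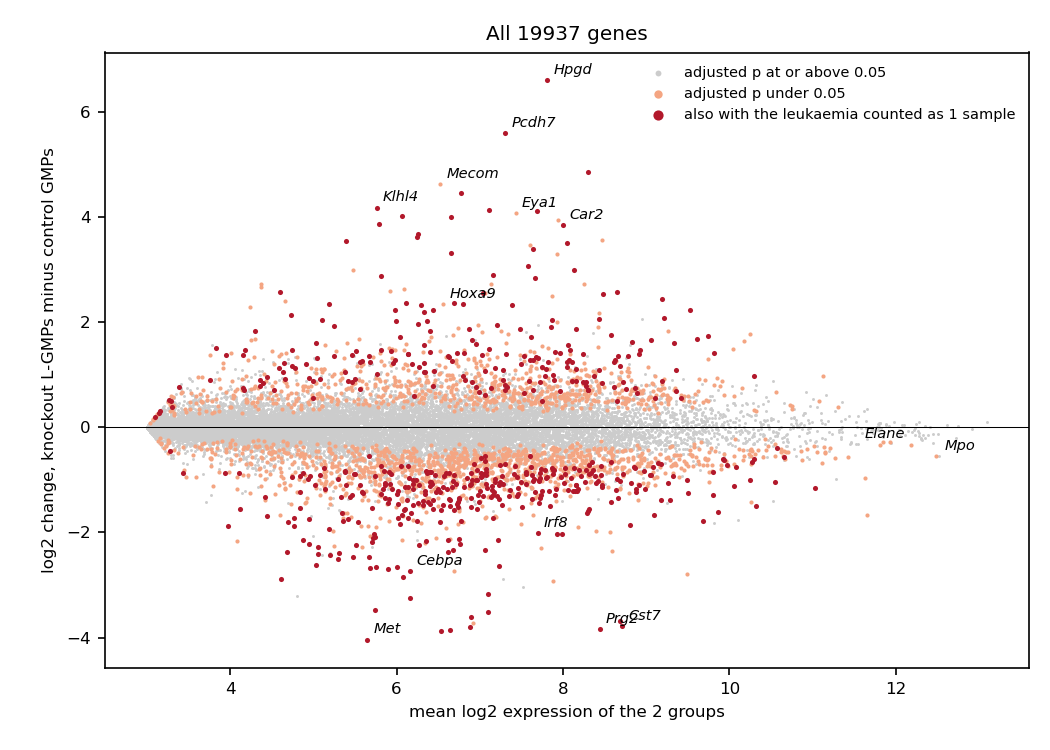
Log2 change (y axis, knockout L-GMPs minus control GMPs) against the mean log2 level of both groups (x axis) for 19937 genes, with 2479 changed genes coloured and the ones that also pass with the leukaemia counted once in dark red. Hpgd and Pcdh7 stand highest, Met lowest, and Elane and Mpo lie near 0 at the right.

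Cebpa (chr7:35119293-35121928, GRCm38.p6) was low in the leukaemia. Its level was 5.15, 4.90 and 4.33 on the knockout L-GMP arrays, against 7.33, 7.78 and 7.48 on the GMP arrays, a change of −2.73 ± 0.20 (adjusted p = 5.29e-07; counted once 5.97e-05), or 6.66-fold. No knockout array reached a GMP array, so the genotype in the labels holds on all 6. The other 5 of 6 measured family members did not pass. Cebpe, which acts at the later granule stages, had 8.15, 7.88 and 7.99 in knockout L-GMPs, against 7.63, 8.05 and 8.15 in GMPs, and the 95% interval of its change was −0.42 to 0.54. For Cebpb, the member induced in emergency granulocyte production, the interval was −0.62 to 0.29, and for Cebpd, which rises late in granulocyte maturation, −0.86 to 1.03.

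The primary granule proteases elastase, proteinase 3 and cathepsin G overlapped GMP levels without C/EBPα. Elane, neutrophil elastase, had 11.63, 10.97 and 11.57 in knockout L-GMPs, against 11.49, 11.86 and 11.77 in GMPs, and Prtn3, proteinase 3, had 11.41, 10.96 and 11.52, against 11.26, 11.95 and 11.61 in GMPs. These arrays overlap. The 95% interval of the change was −1.45 to 0.81 for Elane, −1.25 to 0.64 for Prtn3 and −0.91 to 0.96 for Ctsg, cathepsin G, so a fall of up to about one unit or more is not excluded. Mpo, myeloperoxidase, had 12.29, 12.14 and 12.29 in knockout L-GMPs, against 12.71, 12.82 and 12.82 in GMPs, which do not overlap, yet its change of −0.54 ± 0.64 did not pass (adjusted p = 0.68). The median change of the 9 measured genes of the list (10 listed) was −0.32, against −0.0046 for all genes. Of the 9, 1 passed, lower, beside 7.64% of all genes lower. That gene was Cst7 (chr2:150570415-150578944), which encodes cystatin F, an inhibitor of lysosomal cysteine proteases in immune cells. It had 7.03, 7.07 and 6.35 in knockout L-GMPs, against 10.24, 10.85 and 10.71 in GMPs, a change of −3.78 ± 0.61 (adjusted p = 0.000796; counted once 0.0326).

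The common myeloid progenitors (CMPs) of knockout mice without a fusion gene give another view of the same genes. Elane averaged 5.58 ± 1.12 in knockout CMPs and 10.43 ± 0.54 in control CMPs (SD, n = 4 each), beside 11.39 ± 0.36 in knockout L-GMPs and 11.70 ± 0.20 in GMPs (SD, n = 3 each). Ctsg averaged 7.47 ± 0.93 in knockout CMPs and 11.40 ± 0.19 in control CMPs, beside 11.93 ± 0.02 in knockout L-GMPs and 11.90 ± 0.13 in GMPs. Cst7 had like levels in both kinds of CMPs, with 9.89 ± 0.18 in knockout CMPs and 9.90 ± 0.27 in control CMPs. The difference between L-GMPs and CMPs in the size of these changes was not tested.

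Promoter sequences of 4 of these genes are shown, those of the 1 granule gene that fell and of 3 chosen from the 8 that did not pass. They do not stand for the whole list. They are RefSeq windows of GRCm38.p6, 250 bases before to 50 after the gene's start, 5′ to 3′. Capitals mark the letters TTGCNNAA (or TTNNGCAA on the other strand), part of the site that C/EBP proteins bind, and GAGGAAGT (or ACTTCCTC), a site of the ETS factor PU.1; these motifs share no match in the windows. The Cst7 window (chr2:150570165-150570464, plus strand) holds C/EBP letters, and the Elane window (chr10:79886062-79886361, plus strand), the Prtn3 window (chr10:79879417-79879716, plus strand) and the Mpo window (chr11:87793534-87793833, plus strand) hold PU.1 letters.
Cst7: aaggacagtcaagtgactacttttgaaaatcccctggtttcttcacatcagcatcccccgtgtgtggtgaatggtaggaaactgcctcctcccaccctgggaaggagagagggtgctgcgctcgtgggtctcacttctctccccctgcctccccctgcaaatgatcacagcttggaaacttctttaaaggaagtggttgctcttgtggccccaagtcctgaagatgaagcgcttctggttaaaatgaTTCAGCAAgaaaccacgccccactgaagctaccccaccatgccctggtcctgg
Elane: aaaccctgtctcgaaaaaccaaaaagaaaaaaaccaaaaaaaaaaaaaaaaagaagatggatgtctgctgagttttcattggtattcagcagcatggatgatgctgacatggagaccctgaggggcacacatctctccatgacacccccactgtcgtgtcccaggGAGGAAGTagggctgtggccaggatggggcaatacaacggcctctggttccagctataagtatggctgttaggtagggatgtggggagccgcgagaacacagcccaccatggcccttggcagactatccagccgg
Prtn3: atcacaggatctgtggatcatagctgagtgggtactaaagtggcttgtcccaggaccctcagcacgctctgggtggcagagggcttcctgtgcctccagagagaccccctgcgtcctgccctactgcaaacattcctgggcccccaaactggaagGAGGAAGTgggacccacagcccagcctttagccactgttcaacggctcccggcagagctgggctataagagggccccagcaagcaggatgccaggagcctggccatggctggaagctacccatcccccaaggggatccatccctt
Mpo: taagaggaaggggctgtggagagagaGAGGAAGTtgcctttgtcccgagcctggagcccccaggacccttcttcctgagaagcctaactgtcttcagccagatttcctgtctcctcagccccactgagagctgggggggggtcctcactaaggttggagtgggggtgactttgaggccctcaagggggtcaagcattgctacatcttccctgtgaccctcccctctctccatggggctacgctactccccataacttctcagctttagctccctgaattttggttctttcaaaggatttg
Across all windows of tested genes (19114 windows of 15561 genes) 9.76% held the C/EBP letters and 2.78% the PU.1 letters. Windows of genes lower by at least 2-fold held the C/EBP letters in 10.5% of 409 and those of genes higher by at least 2-fold in 10.8% of 278. For the PU.1 letters the shares were 3.18% and 5.4%. The C/EBP shares of both sets lie near that of all windows, and a match describes the letters only.

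**Figure D2:**
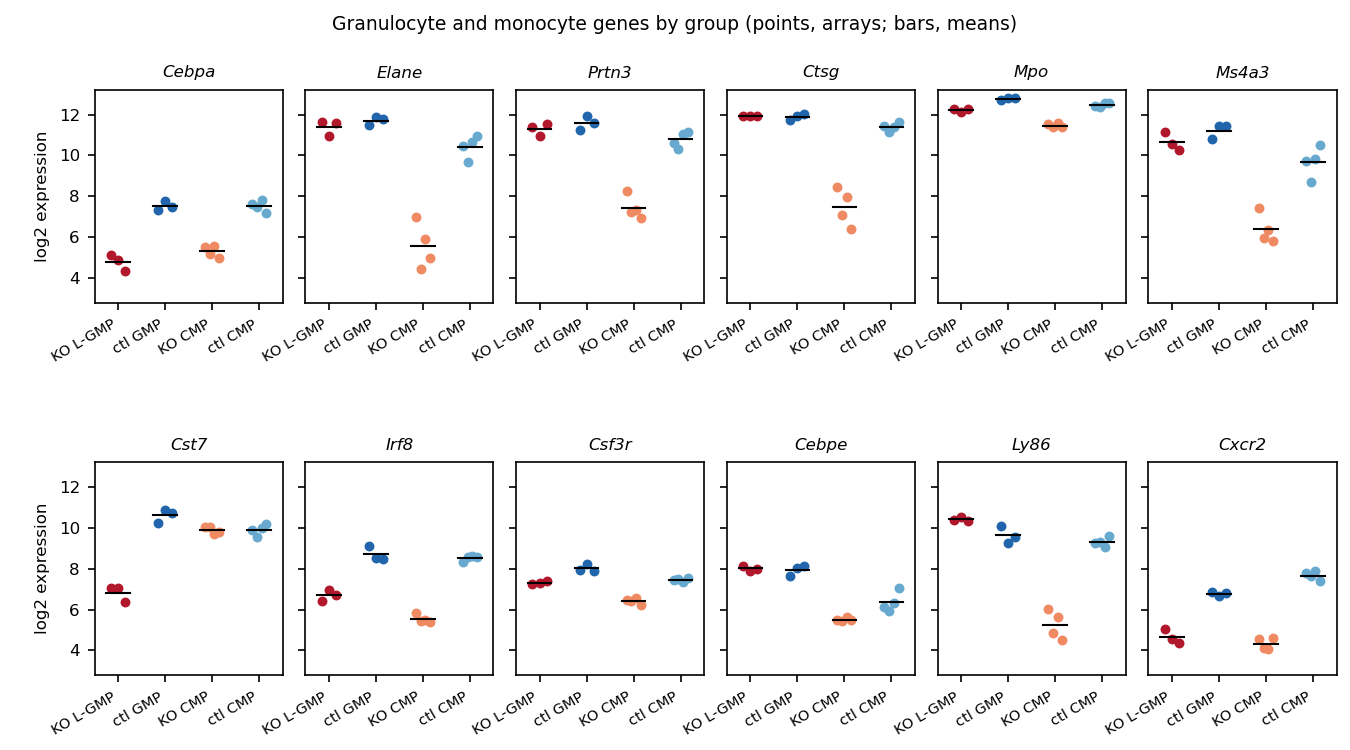
Log2 level (y axis) of 12 granulocyte and monocyte genes by group (x axis), with points for arrays and bars for means of knockout L-GMPs (3 arrays), control GMPs (3), knockout CMPs (4) and control CMPs (4). Elane, Prtn3, Ctsg and Ms4a3 are near GMP levels in knockout L-GMPs and low in knockout CMPs, while Cst7, Irf8 and Cxcr2 are below GMP levels in knockout L-GMPs.

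Receptors and regulators of the granulocyte and monocyte lineages were in part lower. Irf8, the transcription factor that favours monocytes over granulocytes, had 6.42, 6.96 and 6.70 in knockout L-GMPs, against 9.10, 8.51 and 8.49 in GMPs, with no overlap, and fell by 4.02-fold (change −2.01 ± 0.31, adjusted p = 0.000587; counted once 0.0276). The receptor of M-CSF, Csf1r, had 6.94, 7.49 and 7.86 in knockout L-GMPs, against 9.23, 8.56 and 8.42 in GMPs (change −1.31 ± 0.25, adjusted p = 0.00283; counted once 0.0702). For Csf3r, the receptor of G-CSF, the change was −0.71 ± 0.17 (adjusted p = 0.0134; counted once 0.186), and leaving out GMP replicate 2 also ended the call. These were the 3 genes of 15 that passed, all lower, beside 7.64% of all genes lower, and the median of the list was −0.30. Spi1, which encodes PU.1, and Gfi1, a repressor that favours granulocytes, did not pass, with intervals of −0.67 to 0.29 and −0.74 to 0.10. In control L-GMPs, against the same GMP arrays, Irf8 changed by −1.42, Csf1r by −1.55 and Csf3r by −0.80. None of these genes differed between the leukaemias at the adjusted threshold. There 4 of the 15 genes were lower than in GMPs in control L-GMPs, beside 14.7% of all genes.

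Among the 15 measured monocyte and macrophage genes (16 listed) 2 fell and 1 rose, beside 7.64% of all genes lower and 4.8% higher. Clec7a, the β-glucan receptor Dectin-1, had 4.59, 4.42 and 4.90 in knockout L-GMPs, against 7.03, 6.06 and 6.22 in GMPs (change −1.80 ± 0.23, adjusted p = 0.000129; counted once 0.00772). Ccr2, the chemokine receptor by which monocytes leave the marrow, changed by −2.29 ± 0.59 (adjusted p = 0.017; counted once 0.203), and Adgre1, the macrophage antigen F4/80, by 0.84 ± 0.25 (adjusted p = 0.0387; counted once 0.307). Without single arrays the Ccr2 call ended in 2 of 6 repeats and the Adgre1 call in 4 of 6.

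Genes of secondary granules and mature neutrophils moved both ways, 3 higher and 4 lower of 20, with a median of −0.05. Of all genes 4.8% were higher and 7.64% lower. Olfm4, olfactomedin 4 of neutrophil granules, had 7.20, 8.05 and 8.98 in knockout L-GMPs, against 3.93, 4.02 and 4.24 in GMPs (change 4.01 ± 0.39, adjusted p = 1.15e-05; counted once 0.00119). Padi4, which citrullinates histones in neutrophils, rose too, with 6.94, 7.38 and 7.63 in knockout L-GMPs, against 5.45, 5.67 and 5.32 in GMPs (change 1.84 ± 0.22; counted once 0.00599), and Cd177, a neutrophil surface protein, rose with all arrays counted (1.19 ± 0.23; counted once 0.0824). Cxcr2, the chemokine receptor of mature neutrophils, had 5.05, 4.56 and 4.38 in knockout L-GMPs, against 6.87, 6.64 and 6.80 in GMPs (change −2.11 ± 0.21, limma adjusted p = 1.15e-05, counted once 0.00182). In control L-GMPs Cxcr2 changed by −2.05 from GMPs, and it did not differ between the leukaemias at the adjusted threshold. Changes of S100a8, a calcium-binding alarmin (−2.79 ± 0.70), Fcnb, a ficolin (−2.10 ± 0.63), and Mmp8, neutrophil collagenase (−1.12 ± 0.34), did not pass counted once, and leaving out 1 array ended the call of Fcnb in 5 of 6 repeats and that of S100a8 in 3. The secondary 2 array stood above the other 2 arrays of the leukaemia for S100a8 (7.75, 6.77 and 9.76), S100a9 (8.58, 7.78 and 10.34), Camp (5.50, 5.71 and 7.96) and Ngp (4.75, 5.17 and 7.54), all products of maturing neutrophils. Ltf, lactoferrin, was low everywhere, with 3.64, 3.52 and 3.76 in knockout L-GMPs and 3.94, 3.39 and 3.64 in GMPs.

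Several genes of eosinophils, basophils and mast cells were lower in the leukaemia. In sorted cells measured in bulk, fewer cells of a type and less RNA per cell cannot be told apart. Prg2 (chr2:84980461-84983632), the major basic protein of eosinophil granules, had 6.50, 6.41 and 6.64 in knockout L-GMPs, against 10.39, 10.20 and 10.50 in GMPs, a 14.4-fold fall (change −3.84 ± 0.48, adjusted p = 9.48e-05; counted once 0.00778). Eosinophil peroxidase, Epx, had 4.53, 4.08 and 4.69 in knockout L-GMPs, against 6.66, 7.02 and 7.02 in GMPs (change −2.47 ± 0.21; counted once 0.000347), and Ear6, an eosinophil ribonuclease of a multigene family whose members can share probes, changed by −2.67 ± 0.14 (counted once 7.49e-06). With Prg3 (−1.50 ± 0.40; counted once 0.22), an eosinophil granule protein related to Prg2, 4 of 7 measured eosinophil genes (9 listed) fell. Of all genes 7.64% fell. The mean level of the eosinophil list per array was 5.11 to 5.20 in knockout L-GMPs and 6.51 to 6.75 in GMPs, with a median change of −1.50.

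Prss34, a protease of basophils and mast cells, had 4.72, 4.76 and 4.68 in knockout L-GMPs, against 9.92, 7.82 and 7.96 in GMPs (change −3.85 ± 0.49, adjusted p = 0.000123; counted once 0.00994). All 3 leukaemia arrays lay far below the GMP arrays, of which the first was highest. In control L-GMPs Prss34 changed by −3.83 from GMPs, and it did not differ between the leukaemias at the adjusted threshold. Cpa3, mast cell carboxypeptidase, had 4.75, 5.75 and 4.65 in knockout L-GMPs, against 9.05, 8.16 and 9.12 in GMPs (change −3.72 ± 0.80, adjusted p = 0.00585; counted once 0.11). These were 2 of 11 genes of the list, beside 7.64% of all genes lower. The mean of the list per array was 4.85 to 5.00 in knockout L-GMPs and 6.01 to 6.85 in GMPs. The high-affinity IgE receptor chain Fcer1a (−3.20 ± 1.25, adjusted p = 0.114) and the histamine-forming enzyme Hdc (−3.03 ± 1.08, adjusted p = 0.0811) did not pass.

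Lists of other lineages had 1 to 3 members each that changed, given here beside the 12.4% of all genes that changed. In the erythroid list (14 measured of 17) only Car2 passed, higher, and the mean level per array was 5.60 to 5.70 in knockout L-GMPs and 5.53 to 5.66 in GMPs. Car2, carbonic anhydrase 2, had 9.88, 9.91 and 9.99 in knockout L-GMPs, against 5.83, 6.01 and 6.40 in GMPs (change 3.84 ± 0.49, adjusted p = 0.000108; counted once 0.00907), while Gata1, the erythroid master regulator, had 4.97, 5.30 and 4.97 in knockout L-GMPs, against 5.22, 4.95 and 5.49 in GMPs. Mature lymphocyte genes averaged 5.37 to 5.62 in knockout L-GMPs and 5.31 to 5.51 in GMPs, with 1 of 11 changed, Cd79b, a B cell receptor chain (1.05 ± 0.21; counted once 0.084). The stromal and endothelial list averaged 5.07 to 5.17 in knockout L-GMPs and 5.31 to 5.39 in GMPs. Of its 13 genes Fn1, fibronectin (−2.70 ± 0.46; counted once 0.0456), and Vcam1, an adhesion molecule (−1.78 ± 0.35; counted once 0.084), fell and Pecam1, CD31, which myeloid cells also carry (1.29 ± 0.23; counted once 0.0439), rose. In the megakaryocyte list (8 of 14 measured) Gng11, a G protein subunit of platelets (−1.90 ± 0.60), fell and Nfe2, a platelet and red cell transcription factor (0.81 ± 0.22), rose; neither passed counted once. Flt3 and Siglech (0.44 ± 0.13; counted once 0.257) were the 2 of 13 dendritic cell genes that rose, and Flt3 the 1 of 11 lymphoid progenitor genes.

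Among genes of the sort gate, Cd34 had 10.05, 10.11 and 9.71 in knockout L-GMPs, against 10.24, 10.05 and 10.08 in GMPs, and Kit, the stem cell factor receptor, had 8.24, 8.38 and 8.33, against 8.65, 9.02 and 8.89 in GMPs. Neither passed. Itgam, the myeloid integrin CD11b, had 8.47, 9.18 and 8.90 in knockout L-GMPs, against 7.29, 7.34 and 7.21 in GMPs (change 1.57 ± 0.27, adjusted p = 0.00123; counted once 0.0443), and Ptprc, the leukocyte antigen CD45, rose by 0.71 (counted once 0.0877). These were 2 of 11 measured genes of the gate, beside 4.8% of all genes higher. Set against the granulocyte-macrophage label, Elane, Prtn3, Ctsg and Ms4a3 overlapped GMP arrays, while Mpo, Cst7, Ctsc, Irf8 and Csf1r were below them on every leukaemia array. Ctsc, cathepsin C, which activates granule proteases, had 7.41, 7.12 and 7.35 in knockout L-GMPs, against 9.32, 8.44 and 8.30 in GMPs, and did not pass (change −1.39 ± 0.49, adjusted p = 0.0785).

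**Figure D3:**
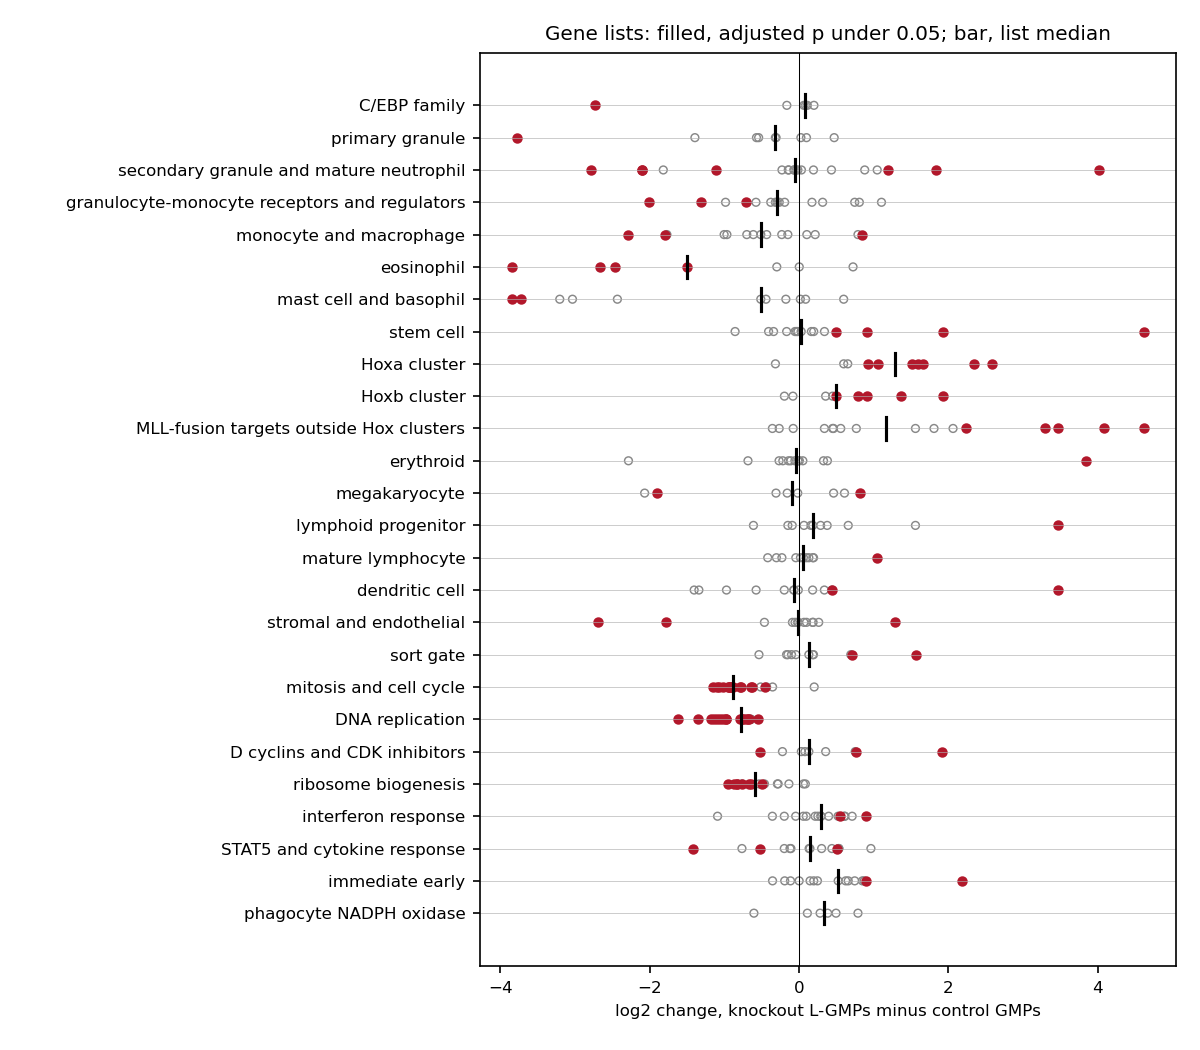
Log2 change (x axis, knockout L-GMPs minus control GMPs) of the measured members of 26 gene lists (rows), filled where the adjusted p is under 0.05 with all 6 arrays counted; black bars are list medians. Mitosis, DNA replication and ribosome biogenesis lie to the left of 0, and Hoxa genes to the right.

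Several of the genes that MLL fusions keep active were higher in the leukaemia than in GMPs. Hoxa9 (chr6:52223097-52227370), a homeobox gene that MLL fusions activate, had 7.40, 7.89 and 7.91 in knockout L-GMPs, against 5.05, 5.85 and 5.25 in GMPs (change 2.35 ± 0.48, adjusted p = 0.00406; counted once 0.0959). In the Hoxa cluster 7 of 10 measured genes rose (11 listed), with a median change of 1.28, against 4.8% of all genes. They were Hoxa5 (2.59 ± 0.50), Hoxa9, Hoxa7 (1.66 ± 0.23), Hoxa6 (1.59 ± 0.37), Hoxa10 (1.52 ± 0.38), Hoxa3 (1.05 ± 0.25) and Hoxa2 (0.93 ± 0.24). Hoxa7, with 7.52, 7.54 and 8.14 in knockout L-GMPs, against 5.94, 6.25 and 6.03 in GMPs, was the one that passed counted once (adjusted p = 0.00872). Hoxa2 stood near the bottom of the scale, with 3.76, 4.25 and 4.97 in knockout L-GMPs, against 3.50, 3.50 and 3.20 in GMPs.

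Of the Hoxb genes 5 of 9 measured (10 listed) rose, 2 of them counted once, with a median of 0.50, against 4.8% of all genes higher and 1.04% counted once. Hoxb5 (chr11:96303512-96306121), a gene of long-lived stem cells, had 6.11, 5.95 and 6.56 in knockout L-GMPs, against 4.13, 4.48 and 4.24 in GMPs (change 1.93 ± 0.28, adjusted p = 0.00038; counted once 0.0158). Hoxb2 had 5.56, 6.17 and 6.04 in knockout L-GMPs, against 4.60, 4.53 and 4.56 in GMPs (change 1.36 ± 0.15, adjusted p = 2.68e-05; counted once 0.00308). The calls of Hoxb4 (0.91 ± 0.24), Hoxb6 (0.78 ± 0.16) and Hoxb3 (0.50 ± 0.15) ended when the leukaemia was counted once, and those of Hoxb4 and Hoxb3 also in 4 of 6 repeats without 1 array.

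Outside the Hox clusters 5 of 16 measured MLL-fusion targets rose (18 listed), 1 of them counted once, with a median of 1.16. Of all genes 4.8% rose, and 1.04% counted once. Mecom (chr3:29951296-30509759), a stem cell transcription factor and marker of poor outcome in human acute myeloid leukaemia, had 8.14, 8.76 and 9.60 in knockout L-GMPs, against 4.31, 4.17 and 4.16 in GMPs (change 4.62 ± 1.02, adjusted p = 0.00691; counted once 0.127). It differed by 24.6-fold and was highest on the secondary 2 array. Eya1, a phosphatase and transcriptional co-activator of development, had 9.32, 9.41 and 9.69 in knockout L-GMPs, against 5.27, 5.41 and 5.48 in GMPs (change 4.08 ± 0.86; counted once 0.108). The partner of Hoxa9, Meis1, had 9.33, 9.83 and 9.56 in knockout L-GMPs, against 6.38, 6.21 and 6.23 in GMPs (change 3.30 ± 0.89, adjusted p = 0.0222; counted once 0.24). The groups lie far apart, yet the call ended in 5 of 6 repeats without 1 array. The SE comes from all 9 groups of the study, among them the MLL-AF9 knockout cells without leukaemia. In these Meis1 averaged 7.51 ± 2.08 (KSLs, SD, n = 2) and 7.80 ± 2.61 (CMPs, SD, n = 3). In CMPs without the fusion Meis1 averaged 8.82 ± 0.20 (knockout) and 7.88 ± 0.23 (control, SD, n = 4 each). Flt3, the receptor tyrosine kinase, had 9.13, 9.79 and 9.09 in knockout L-GMPs, against 6.15, 6.10 and 5.36 in GMPs (3.47 ± 0.78, counted once 0.136). In CMPs without the fusion Flt3 averaged 6.73 ± 0.49 (knockout) and 8.05 ± 0.25 (control, SD, n = 4 each). Jmjd1c, of the Jumonji family of histone demethylases, passed both ways, with 10.51, 10.62 and 10.78 in knockout L-GMPs, against 8.42, 8.43 and 8.37 in GMPs (change 2.23 ± 0.16, adjusted p = 5.29e-07; counted once 0.000148). Mef2c (2.06 ± 0.86, adjusted p = 0.139) and Id2 (1.81 ± 0.89, adjusted p = 0.225) did not pass.

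Of 15 measured stem cell genes (17 listed) 4 rose, beside 4.8% of all genes. They were Mecom and the Hox genes Hoxb5, Hoxb4 and Hoxb3, and the median of the list was 0.03. Others of the list did not pass, such as Procr, the protein C receptor, with 4.69, 4.83 and 4.78 in knockout L-GMPs, against 4.99, 4.77 and 4.46 in GMPs, and Mllt3, the AF9 gene itself (−0.86 ± 0.29).

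Genes of cell division were lower than in normal GMPs. In the mitosis list 15 of 19 measured genes fell and none rose, with a median of −0.88, against 7.64% of all genes lower. The 4 that also passed counted once included Birc5, survivin, with 8.68, 8.10 and 8.09 in knockout L-GMPs, against 9.54, 9.20 and 9.32 in GMPs (change −1.07 ± 0.13, adjusted p = 7.26e-05; counted once 0.0065), and Aurkb, the mitotic kinase aurora B (−1.02 ± 0.15; counted once 0.0206). Plk1, polo-like kinase, had 7.75, 6.77 and 6.64 in knockout L-GMPs, against 8.12, 8.38 and 8.11 in GMPs (change −1.15 ± 0.22; counted once 0.0699). The primary array stood above both secondary arrays, as it did for all 19 genes of the list. Mki67, the proliferation antigen Ki-67, had 9.13, 8.53 and 8.31 in knockout L-GMPs, against 9.82, 9.47 and 9.51 in GMPs (−0.94 ± 0.26). The mean of the list per array was 7.48 to 8.45 in knockout L-GMPs and 8.59 to 8.72 in GMPs.

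DNA replication genes fell with them, 16 of 20, 4 of these counted once, with a median of −0.78, against 7.64% of all genes lower, and all 20 had lower values on every leukaemia array than on any GMP array (37.2% of all genes do not overlap, in either direction). Rrm2, the regulated subunit of ribonucleotide reductase, had 8.03, 7.46 and 6.94 in knockout L-GMPs, against 9.01, 9.12 and 9.17 in GMPs (change −1.62 ± 0.28, adjusted p = 0.0013; counted once 0.0404). Tyms, thymidylate synthase (−1.17 ± 0.17; counted once 0.0143), and Mcm3, part of the replicative helicase (−0.98 ± 0.12; counted once 0.0058), also fell. Cdc6, which loads that helicase, changed by −1.35 ± 0.29 (counted once 0.087). The primary array was the highest of the 3 leukaemia arrays for 19 of the 20 genes, and the mean of the list per array was 7.46 to 8.13 in knockout L-GMPs and 8.69 to 8.74 in GMPs.

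Of 16 ribosome biogenesis genes 8 fell, with a median of −0.59, against 7.64% of all genes lower. Of these 8, 1 passed counted once, Polr1b, a subunit of RNA polymerase I (−0.87 ± 0.17, counted once 0.0456). Nop56, a nucleolar protein (−0.96 ± 0.23), and Dkc1, dyskerin (−0.82 ± 0.20), were among the others. Myc had 9.80, 9.37 and 9.47 in knockout L-GMPs, against 10.90, 11.04 and 10.98 in GMPs (change −1.42 ± 0.26, adjusted p = 0.002; counted once 0.0619). Cdkn2c, the CDK inhibitor p18, had 9.10, 9.52 and 9.52 in knockout L-GMPs, against 7.81, 7.17 and 7.43 in GMPs (1.91 ± 0.60, adjusted p = 0.047), and Cdkn2d, p19, changed by 0.77 ± 0.20. Both calls, and that of Ccnd2, cyclin D2 (−0.53 ± 0.17), ended counted once and in at least 4 of 6 repeats without 1 array.

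Signalling lists held 0 to 3 changed genes each, beside 12.4% of all genes. In the cytokine response list (14 genes) 1 rose and 2 fell: Mcl1, a survival protein (0.50 ± 0.11), against Myc and Ccnd2. Cish, a target of STAT5, had 5.87, 5.76 and 6.01 in knockout L-GMPs, against 5.37, 5.54 and 5.13 in GMPs, and did not pass. Of 15 immediate early genes Fosb (2.18 ± 0.65) and Zfp36 (0.90 ± 0.22) rose, and of 17 interferon response genes (20 listed) Oas2 (0.89 ± 0.26) and Stat2 (0.55 ± 0.15); none of these 5 rises passed counted once. None of 6 phagocyte oxidase genes passed in limma at the adjusted threshold, with a median of 0.33.

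The largest rises among genes that passed both ways were led by Hpgd (chr8:56294552-56321046), the enzyme that inactivates prostaglandins. Its level was 11.17, 11.10 and 11.05 on the knockout L-GMP arrays, against 4.69, 4.41 and 4.42 on the GMP arrays, a 97.1-fold difference (change 6.60 ± 0.16, adjusted p = 3.45e-13; counted once 6.49e-10). Pcdh7 (chr5:57716145-58133236), a protocadherin, had 10.07, 10.04 and 10.20 in knockout L-GMPs, against 4.81, 4.47 and 4.24 in GMPs (change 5.59 ± 0.20, adjusted p = 5.74e-11; counted once 5.68e-08). Lack of overlap between the groups was part of how these largest rises were chosen, so it adds no separate evidence for Hpgd or Pcdh7. The spread of their arrays within each group was far smaller than their changes. Klhl4 (chrX:114474333-114561129), a kelch family gene, had 8.35, 7.54 and 7.66 in knockout L-GMPs, against 3.60, 3.73 and 3.67 in GMPs (4.18 ± 0.13; counted once 1.29e-08). Pde3b, a cyclic nucleotide phosphodiesterase, had 10.40, 10.97 and 10.83 in knockout L-GMPs, against 5.89, 6.06 and 5.67 in GMPs (4.86 ± 0.74; counted once 0.0246).

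The others of the 12 have varied roles. Dsp, the desmosome protein desmoplakin, changed by 4.14 ± 0.46, and Epha7, an ephrin receptor, by 4.12 ± 0.48. Igf2bp3, a fetal RNA-binding protein, had 8.54, 8.68 and 8.75 in knockout L-GMPs, against 4.66, 4.69 and 4.60 in GMPs (4.01 ± 0.29, adjusted p = 5.29e-07; counted once 0.00016). Penk, the precursor of enkephalins, had 7.97, 8.19 and 8.01 in knockout L-GMPs, against 4.40, 4.45 and 4.44 in GMPs (3.63 ± 0.50; counted once 0.0143). Dennd5b (3.67 ± 0.28), Olfm4 and Car2 were also among them. Xlr, of an X-linked multigene family whose copies can share probes, changed by 4.47 ± 0.59, with GMP arrays that ran widely apart (5.76, 4.52 and 3.34).

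**Figure D4:**
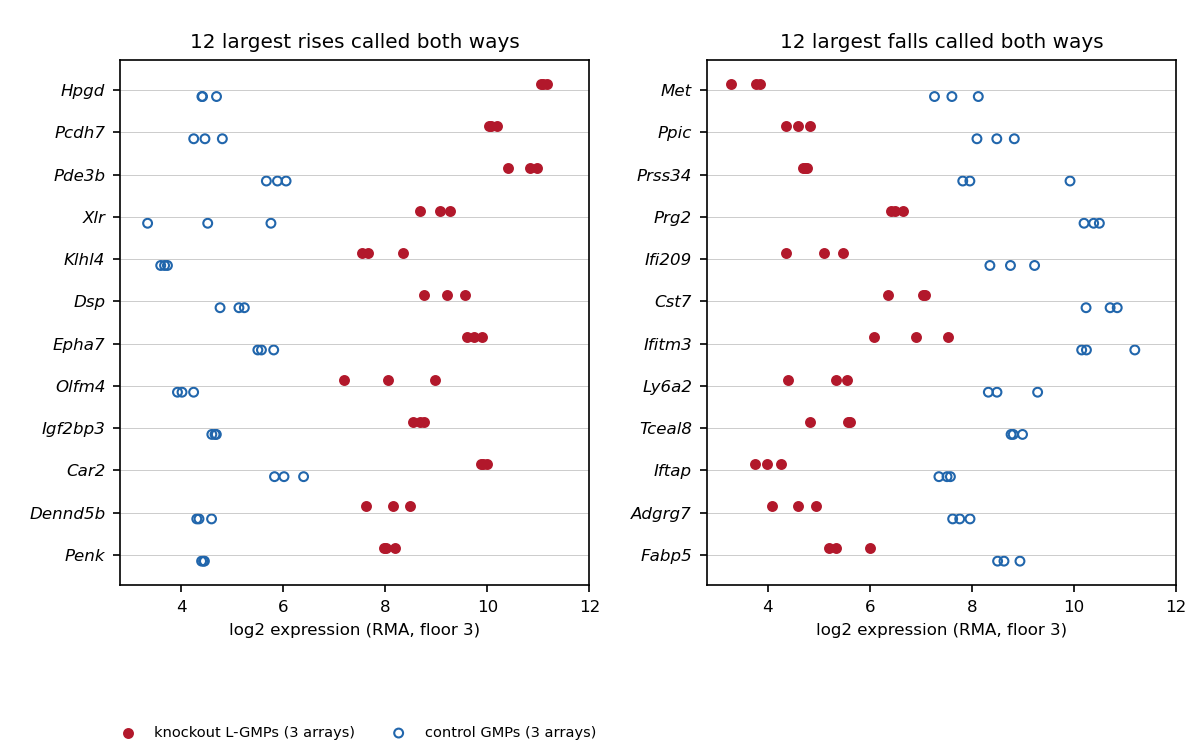
Log2 level (x axis) on each of 3 knockout L-GMP arrays (filled red, upper row of each gene) and 3 control GMP arrays (open blue, lower row) for the 12 largest rises and 12 largest falls among genes that pass with 3 arrays and with the leukaemia counted once. The groups do not overlap for any of them, which was part of how they were chosen.

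The largest fall was that of Met (chr6:17463349-17573980), the receptor of hepatocyte growth factor. It had 3.76, 3.85 and 3.28 in knockout L-GMPs, against 8.12, 7.61 and 7.27 in GMPs, a 16.4-fold difference (change −4.04 ± 0.22, adjusted p = 1.68e-08; counted once 3.70e-06). Falls of similar size were those of Ppic, cyclophilin C (−3.88 ± 0.51), Prss34, Prg2 and Cst7. Ifi209, an interferon-inducible gene of a multigene family, had 5.10, 5.47 and 4.35 in knockout L-GMPs, against 9.23, 8.76 and 8.35 in GMPs (−3.80 ± 0.41; counted once 0.00225). Ifitm3, an antiviral membrane protein, had 7.53, 6.07 and 6.90 in knockout L-GMPs, against 11.19, 10.24 and 10.15 in GMPs (−3.69 ± 0.49; counted once 0.0105). Of the 17 interferon response genes measured 0 were lower, which is near the 7.64% of all genes lower, and their median was 0.29. The GMPs were taken 5 days after poly I:C, and its part in the falls of Ifi209 and Ifitm3 was not tested. Ly6a2, of the Ly6 surface protein family (−3.60 ± 0.37), Tceal8 (−3.52 ± 0.40), Iftap, which binds the ciliary transport machinery (−3.48 ± 0.46), Adgrg7, an adhesion receptor (−3.24 ± 0.56), and Fabp5, a fatty acid binding protein (−3.18 ± 0.21), made up the 12.

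L-GMPs of control MLL-AF9 mice were set against the same 3 GMP arrays, so the 2 sets of changes share their reference and are given side by side. Hpgd changed by 6.60 in knockout and 7.12 in control L-GMPs, Met by −4.04 and −3.85, Igf2bp3 by 4.01 and 3.16, Epx by −2.47 and −2.60, and Hoxa9 by 2.35 and 2.47. The difference between the leukaemias was tested directly in limma, knockout minus control L-GMPs, and these 5 genes did not pass. The 95% intervals were −0.84 to −0.21 for Hpgd, −0.62 to 0.25 for Met and −1.07 to 0.82 for Hoxa9. Hpgd came near the threshold (adjusted p = 0.0555), and its knockout arrays all lay below the control L-GMP arrays. In the mitosis list 15 of 19 genes were lower in knockout and 17 in control L-GMPs than in GMPs (7.64% and 14.7% of all genes). Between the leukaemias 0 of the 19 differed, which is near the 4.81% of all genes that did.

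Between the leukaemias 959 genes differed (4.81%), 608 higher (3.05%) and 351 lower (1.76%) in knockout L-GMPs, and 90 (0.451%) with the knockout leukaemia counted once. The 7 arrays fitted alone gave 16, and of 26 named genes that differed between the leukaemias 4 passed there, Pcdh7, Klhl4, Car2 and Iftap. The calls of the other 22 ended, with adjusted p from 0.0535 (Cebpa) to 0.397 (Olfm4), as did those of Padi4 and Jmjd1c (0.0633 each). Leaving out the primary control replicate 1 gave 2000, and leaving out either secondary knockout array gave 427 and 409. Xist was high on 3 of 3 knockout and 1 of 4 control L-GMP arrays, so sex differs between these sides. The cytokine vectors are recorded for the knockout side only. The part of sex and of the vectors in the differences was not tested. Pcdh7 set them apart most: knockout L-GMPs had 10.07, 10.04 and 10.20, control L-GMPs 4.36, 4.95, 4.36 and 4.34 and GMPs 4.81, 4.47 and 4.24. The difference between the leukaemias was 5.60 ± 0.19 (limma adjusted p = 3.06e-11, counted once 5.37e-08), and control L-GMPs overlap GMPs. In CMPs without the fusion Pcdh7 averaged 6.73 ± 0.26 (knockout) and 5.13 ± 0.29 (control, SD, n = 4 each). In MLL-AF9 knockout cells without leukaemia it averaged 5.12 ± 0.16 (CMPs, SD, n = 3) and 5.13 ± 0.18 (KSLs, SD, n = 2).

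Klhl4 behaved alike, with 3.57, 4.10, 3.68 and 3.90 in control L-GMPs (4.04 ± 0.13, counted once 2.69e-08), and so did Car2 (4.22 ± 0.45, counted once 0.0101). A high Car2 level is not particular to this leukaemia. It averaged 9.81 ± 0.17 in knockout CMPs and 9.08 ± 0.48 in control CMPs (SD, n = 4 each). Mecom had 8.14, 8.76 and 9.60 in knockout L-GMPs, against 5.36, 4.27, 3.93 and 3.94 in control L-GMPs (4.46 ± 0.95, adjusted p = 0.0133, counted once 0.327). In MLL-AF9 knockout cells without leukaemia Mecom averaged 6.73 ± 2.69 (CMPs, SD, n = 3) and 6.38 ± 2.95 (KSLs, SD, n = 2). Of the Hoxb genes 4 of 9 were higher than in control L-GMPs and of the Hoxa genes 0 of 10, beside 3.05% of all genes. With the 7 arrays fitted alone these 4 Hoxb calls ended (limma adjusted p = 0.0703 to 0.187). Hoxb5 had 6.11, 5.95 and 6.56 in knockout L-GMPs, against 3.34, 4.39, 3.81 and 4.00 in control L-GMPs (2.32 ± 0.27, adjusted p = 0.000119; counted once 0.0109). Hoxb2 (1.70 ± 0.14; counted once 0.000979), Hoxb4 (1.46 ± 0.23; counted once 0.0884) and Hoxb6 (1.06 ± 0.15; counted once 0.0502) were the other three. Padi4 (2.07 ± 0.20; counted once 0.00545) and Jmjd1c (1.30 ± 0.15; counted once 0.0173) were higher too.

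Lower in knockout than in control L-GMPs were Cebpa (−2.80 ± 0.18; counted once 9.86e-05), Iftap (−3.24 ± 0.43; counted once 0.037), Gng11 (−2.76 ± 0.56; counted once 0.284) and Vcam1 (−1.48 ± 0.33; counted once 0.366). Cpa3 had 4.75, 5.75 and 4.65 in knockout L-GMPs, against 10.61, 10.31, 9.30 and 8.65 in control L-GMPs (−4.67 ± 0.75, adjusted p = 0.00179; counted once 0.101), with no overlap. Cst7 had 7.03, 7.07 and 6.35 in knockout L-GMPs, against 10.16, 8.88, 9.00 and 8.15 in control L-GMPs (−2.23 ± 0.57; counted once 0.5). In all, 279 genes were higher and 97 lower in knockout L-GMPs against both GMPs and control L-GMPs (1.4% and 0.487% of all genes).

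**Figure D5:**
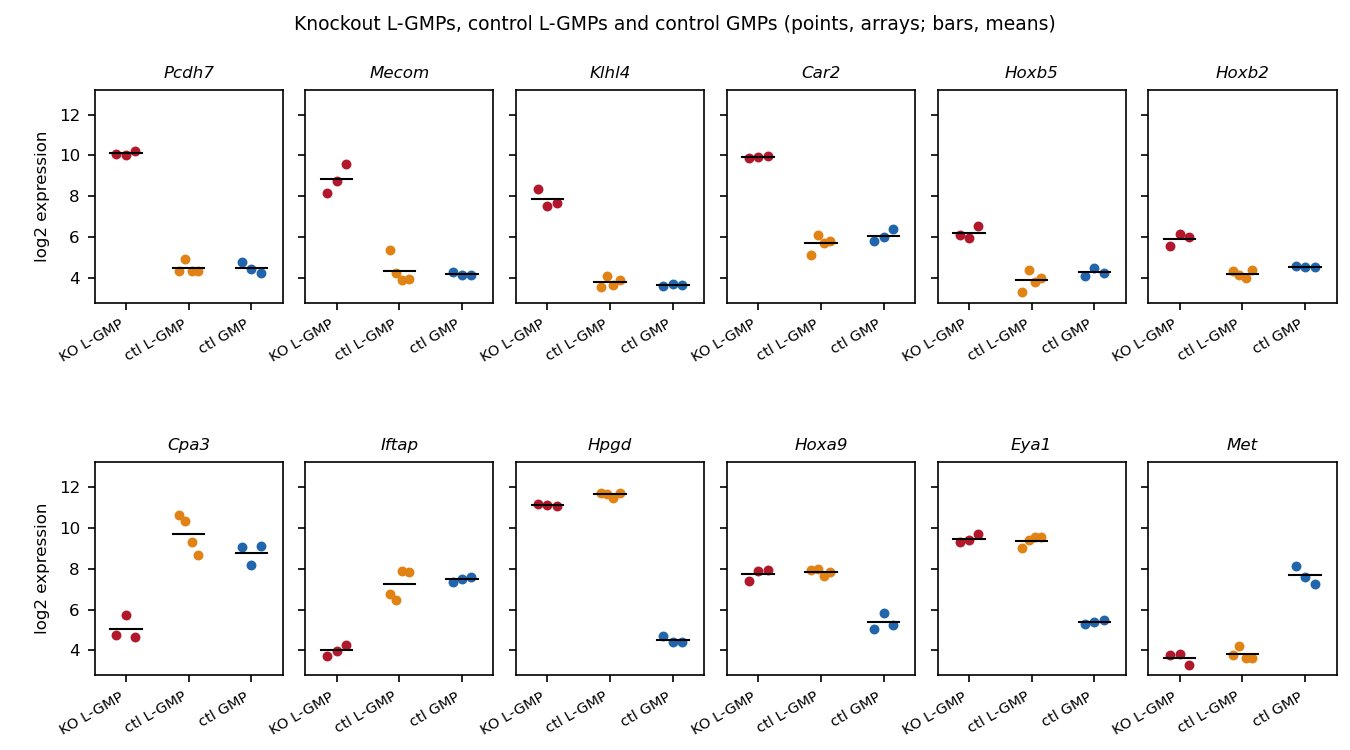
Log2 level (y axis) of 12 genes in knockout L-GMPs (3 arrays), control L-GMPs (4) and control GMPs (3), with points for arrays and bars for means. Pcdh7, Mecom, Klhl4, Car2, Hoxb5 and Hoxb2 are high in knockout L-GMPs alone among the 3 groups, and Cpa3 and Iftap are low there. Hoxa9, Eya1 and Met have like levels in both leukaemias, and Hpgd is high in both. CMPs are not shown, and Car2 is high in them too.

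Within the leukaemia, 7 genes passed in limma between the 2 secondary arrays and the primary one (0.0351%), with 1230 at an unadjusted p under 0.05. The primary side is 1 array with no spread of its own and is assumed to vary like the other groups, so the values below describe these arrays. Named after their values were seen, they were Cxcl10, an interferon-induced chemokine, which had 4.85 and 4.84 on the secondary arrays, against 8.64 on the primary array, and Acot5, Fbxw18, Fam135a, Lrrc4c, Pde1b and Plekhh2. Pde1b, a phosphodiesterase, had 7.58 and 7.48 on the secondary arrays, against 6.26 on the primary one. Plekhh2 had 6.19 and 6.69 on the secondary arrays, against 4.49 on the primary one, and Lrrc4c, a synaptic adhesion protein, had 5.43 and 5.14, against 3.32. The median SD of a gene over the 3 leukaemia arrays was 0.149, against 0.116 over the 3 GMP arrays.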

How the data were processed

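The values are the authors' deposited log2 expression levels of 34760 probe sets on 23 Affymetrix arrays. RMA is the tool that the submitters' processing notes name, with its version not given in the sources used here. Total RNA was amplified with the NuGen Ovation Pico WTA system, per the labels' protocols. The deposited log2 values have a floor of 3, which compresses changes of dim genes, and the number of arrays limits the precision. The platform annotation lists 1 symbol for 21640 probe sets, several for 1321 and none for 11799, and RefSeq matched 21553 of the first by Entrez identifier. The probe set with the highest mean stood for each of 19937 genes.

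Group means of all 9 groups were fitted with limma 3.58.1 in R 4.3.3 (trended empirical Bayes, Benjamini-Hochberg). The knockout mean weights its 3 arrays equally, and replicates share only a number in the labels. A repeat averaged the 3 arrays of the leukaemia to 1 sample; other alternatives changed weights, scaling, probe set choice, filters, the variance prior, the arrays fitted and the arrays left out, and combined array weights with averaging, which was chosen after seeing the data. The code was tested on simulated data. No batch or scan date was used.

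The members, the 26 gene lists and the tests were chosen with earlier results of these data known. Named genes are Cebpa, Hoxa9, Pcdh7 and Mecom, the 12 largest rises and falls among genes that passed with all arrays and with the leukaemia averaged and whose arrays do not overlap (predicted, clone-named, small RNA, pseudogene, receptor and immunoglobulin family, Y-linked genes and Xist left out), from each list at most 4 changed members (2 members where none changed), and the 6 largest rises and falls that also differ from control L-GMPs. Other members are given as values.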

Additional observations from a re-analysis of the deposited data

Results flagged for a closer look

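For 26 named genes the change from GMPs differed between the knockout and the control leukaemia, tested as knockout minus control L-GMPs in the same limma fit (adjusted p under 0.05, log2 differences). Higher in knockout L-GMPs were Pcdh7 (5.60), Mecom (4.46), Pde3b (4.42), Xlr (4.28), Car2 (4.22), Zc3h12c (4.14), Klhl4 (4.04), Dsp (3.09), Hvcn1 (2.63), Dennd5b (2.51), Hoxb5 (2.32), Hoxb2 (1.70), Itgam (1.52), Hoxb4 (1.46), Olfm4 (1.39), Ccnd2 (1.17), Hoxb6 (1.06) and Pecam1 (0.993). Lower in knockout L-GMPs were Cpa3 (−4.67), Iftap (−3.24), Cebpa (−2.80), Gng11 (−2.76), Cst7 (−2.23), Vcam1 (−1.48), Fabp5 (−1.42) and Clec7a (−1.14).

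Zc3h12c, of a family of CCCH zinc finger RNA-degrading proteins, had 10.25, 10.37 and 10.13 in knockout L-GMPs, against 8.32, 4.58, 5.05 and 6.50 in control L-GMPs, and 6.79, 6.65 and 6.62 in GMPs. Hvcn1, the voltage-gated proton channel of phagocytes, had 7.95, 8.87 and 7.89 in knockout L-GMPs, against 6.91, 4.93, 5.36 and 5.24 in control L-GMPs; against GMPs (7.23, 7.64 and 7.48) its rise of 0.79 ± 0.39 did not pass (adjusted p = 0.226). Pde3b and Xlr had one control L-GMP array, the first primary one, above the other three (8.33, 4.97, 5.98 and 5.98 for Pde3b, 7.56, 5.33, 3.00 and 3.00 for Xlr). A high Pde3b level is not particular to this leukaemia. In MLL-AF9 knockout cells without leukaemia Pde3b averaged 9.21 ± 1.34 (CMPs, SD, n = 3) and 10.08 ± 1.58 (KSLs, SD, n = 2). In CMPs without the fusion it averaged 8.08 ± 0.44 (knockout) and 6.07 ± 0.37 (control, SD, n = 4 each). Ccnd2, cyclin D2, was lower than in GMPs in both leukaemias (−0.53 in knockout and −1.70 in control L-GMPs). With the knockout leukaemia counted once, the difference held for Pcdh7, Klhl4, Cebpa, Hoxb2, Dennd5b, Car2, Hoxb5, Xlr, Iftap, Ccnd2 and Hvcn1 among these 26. With the 7 arrays of the leukaemias fitted alone, 4 of the 26 passed (Pcdh7, Klhl4, Car2 and Iftap).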

How the results depend on the processing

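Counts of changed genes moved with several settings, while no named gene that had passed changed direction in any setting run. For knockout L-GMPs against GMPs the count was 2479, 541 with the leukaemia averaged to 1 sample, 5432 with array weights, 2070 with both (chosen after seeing the data), 1737 with the replicate block and 1440 to 2289 without 1 array (1440 without secondary knockout replicate 2, 1489 without GMP replicate 2 and 1539 without GMP replicate 3). Knockout against control L-GMPs gave 959, 16 with the 7 arrays alone, 90 averaged, 216 averaged with array weights, 608 with the replicate block and 409 to 2000 without 1 array. Control L-GMPs against GMPs gave 5052, 3258 with the arrays alone, 3342 with the replicate block and 2764 to 6059 without 1 array (2764 without GMP replicate 2, 3073 without GMP replicate 3, highest without primary control replicate 1). Secondary against primary knockout arrays gave 7, and 74 with array weights. The replicate numbers did not pair the arrays (correlation of deviations 0.0367 and 0.044 between secondary knockout and GMP arrays of like number). Of 82 named genes called against GMPs, 41 remained with the leukaemia averaged and 59 without any single array; calls of Fosb, Cdkn2c and Gng11 ended in all 6 repeats without 1 array, those of Meis1, Fcnb, Oas2 and Siglech in 5, those of Adgre1, Ccnd2, Cdkn2d, Hoxb3, Hoxb4, Nfe2 and Stat2 in 4, and 9 others in 1 to 3, among them Ccna2, Dkc1 and Hoxb6 without secondary knockout replicate 2 alone. With the arrays of each comparison alone, 72 of the 82 remained, and 4 of 26 between the leukaemias. Leaving out 1 array between the leukaemias ended calls of Cst7 (4 of 7 repeats), Olfm4 and Pecam1 (3), Vcam1 (2) and Mecom (1, adjusted p = 0.0787 without secondary knockout replicate 2). Depth does not apply to arrays; values near the floor of 3 limit changes of dim genes.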
